A study of Arabidopsis thaliana with 13 samples.

Results

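The response described here is the change in transcript signals after 15 min of cytokinin that was common to 2 genotypes of Arabidopsis thaliana seedlings. It was taken from 11 of the 13 arrays of a time course: 6 arrays titled as 15 min of 6-benzyl adenine (BA) and 5 arrays of solvent controls. BA is a synthetic cytokinin, dissolved in diluted potassium hydroxide, and its dose is not given in the sources used here. The 4 groups were CKX1 seedlings with 15 min of BA (4 arrays), CKX1 seedlings with solvent (3 arrays), Col-0 seedlings with 15 min of BA (2 arrays) and Col-0 seedlings with solvent (2 arrays). CKX1 plants overexpress a cytokinin oxidase, an enzyme that breaks cytokinins down, from the 35S promoter, which drives expression throughout the plant, and no line number is given. No probe set is listed for the CKX1 gene in the annotation, so its level was not analysed here. Col-0 is the wild-type accession. Col-0 seedlings with 120 min of BA (2 arrays) were left out of the model and are given only as signals. Solvent was applied for 2 h and BA for 15 min, so within these 11 arrays the presence of BA and the length of the treatment cannot be told apart. The Col-0 seedlings treated with BA had grown for 6 days, and no age is stated for the others. The samples are whole seedlings from liquid culture, in which a change in the share of a cell type and a change in RNA per cell cannot be told apart.

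Cytokinins bind histidine kinase receptors, and a phosphorelay through phosphotransfer proteins activates type-B response regulators, which are transcription factors. Among the first genes they switch on are the type-A response regulators, which feed back to dampen the signal. Cytokinin oxidases and glucosyltransferases remove the hormone, and purine permeases and related transporters carry it across membranes.

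Each array gave 1 signal for each of 22746 probe sets after 64 controls were left out, and 15922 probe sets passed the filter on low signals. Array medians lay between 30.5 and 39.5. Of the tested probe sets, 8738 matched 1 gene, 311 matched several, and 6873 were not listed in the probe annotation and are given by their identifier, with no gene. The correlation between arrays was 0.848 to 0.971 within groups, against 0.871 to 0.974 between groups, so arrays did not sort by group. The signal of the 25S ribosomal RNA control was 803.7 on CKX1 BA array 3, 260.3 on CKX1 solvent array 3 and 92.5 on Col-0 BA array 2, and between 2.4 and 46.2 on the other arrays of the model. Results are given without these 3 arrays where that changed a call. Without them, BA array 1 was the only BA array left in Col-0. The number of arrays limits the precision, above all in Col-0, and nothing in the labels tells whether replicates are separate cultures. The p-values then cover only the differences among these samples, possibly technical ones.

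A total of 3 probe sets were called at an adjusted p under 0.05, and each rose after 15 min of BA in both genotypes. They were 247406_at, 252374_at and 251665_at, none of them listed in the annotation. They made up 0.0188% of the tested probe sets, and 0 probe sets fell at that threshold in limma. At an unadjusted p under 0.05, 111 probe sets (0.697%) were higher and 61 (0.383%) were lower, in total 172 (1.08%), whereas 796.1 would be counted if nothing had changed and the p-values were evenly spread. Of these, 110 (0.691%) were higher and 57 (0.358%) were lower in both genotypes. The counts depended on the model. At the same unadjusted p, 300 were higher and 387 lower with the replicate number as a fixed block, 282 and 256 with a random block, and 396 and 440 with array weights. Unadjusted p-values are given below only to order the probe sets.

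Probe set 252374_at had signals of 380.1, 150.8, 931.5 and 317.8 on the CKX1 BA arrays, against 22.3, 37.9 and 32.6 with solvent. In Col-0 it had signals of 1032.4 and 919.8 with BA, against 62.1 and 90.2 with solvent. Every BA array lay above every solvent array of either genotype, and the lowest BA signal was that of CKX1 array 2. The log2 difference over both genotypes was 3.51 ± 0.37 (SE, limma adjusted p = 0.00705), on the log2(signal + 3.39) scale used throughout, which understates the change of dim probe sets. The log2 differences were 3.44 in CKX1 and 3.64 in Col-0, and the effect in CKX1 minus that in Col-0 was −0.20 ± 0.81 (SE, unadjusted p = 0.806 in limma).

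Probe set 247406_at had signals of 206.5, 138.3, 288.8 and 160.9 on the CKX1 BA arrays, against 1.6, 10.9 and 5.9 with solvent. The Col-0 signals were 579.8 and 603.8 with BA, against 56.8 and 133.9 with solvent. The BA arrays lay above the solvent arrays in both genotypes, and the solvent signals of CKX1 were near the bottom of the scale. Its log2 difference was 3.83 ± 0.40 (SE, limma adjusted p = 0.00705), the highest of the called probe sets. The separate effects were 4.48 in CKX1 and 2.71 in Col-0, and they differed by 1.77 ± 0.68 (SE, unadjusted p = 0.0253, adjusted p = 1.00 in limma).

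Probe set 251665_at had signals of 117.1, 85.4, 106.3 and 70.6 on the CKX1 BA arrays, against 28.5, 38.1 and 31.3 with solvent. In Col-0 it had signals of 195.5 and 195 with BA, against 55 and 70.5 with solvent. The groups did not overlap within either genotype, although the lowest CKX1 BA signal was close to the highest Col-0 solvent signal. The log2 difference was 1.49 ± 0.18 (SE, limma adjusted p = 0.0170), with 1.43 in CKX1 and 1.60 in Col-0.

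**Figure D1:**
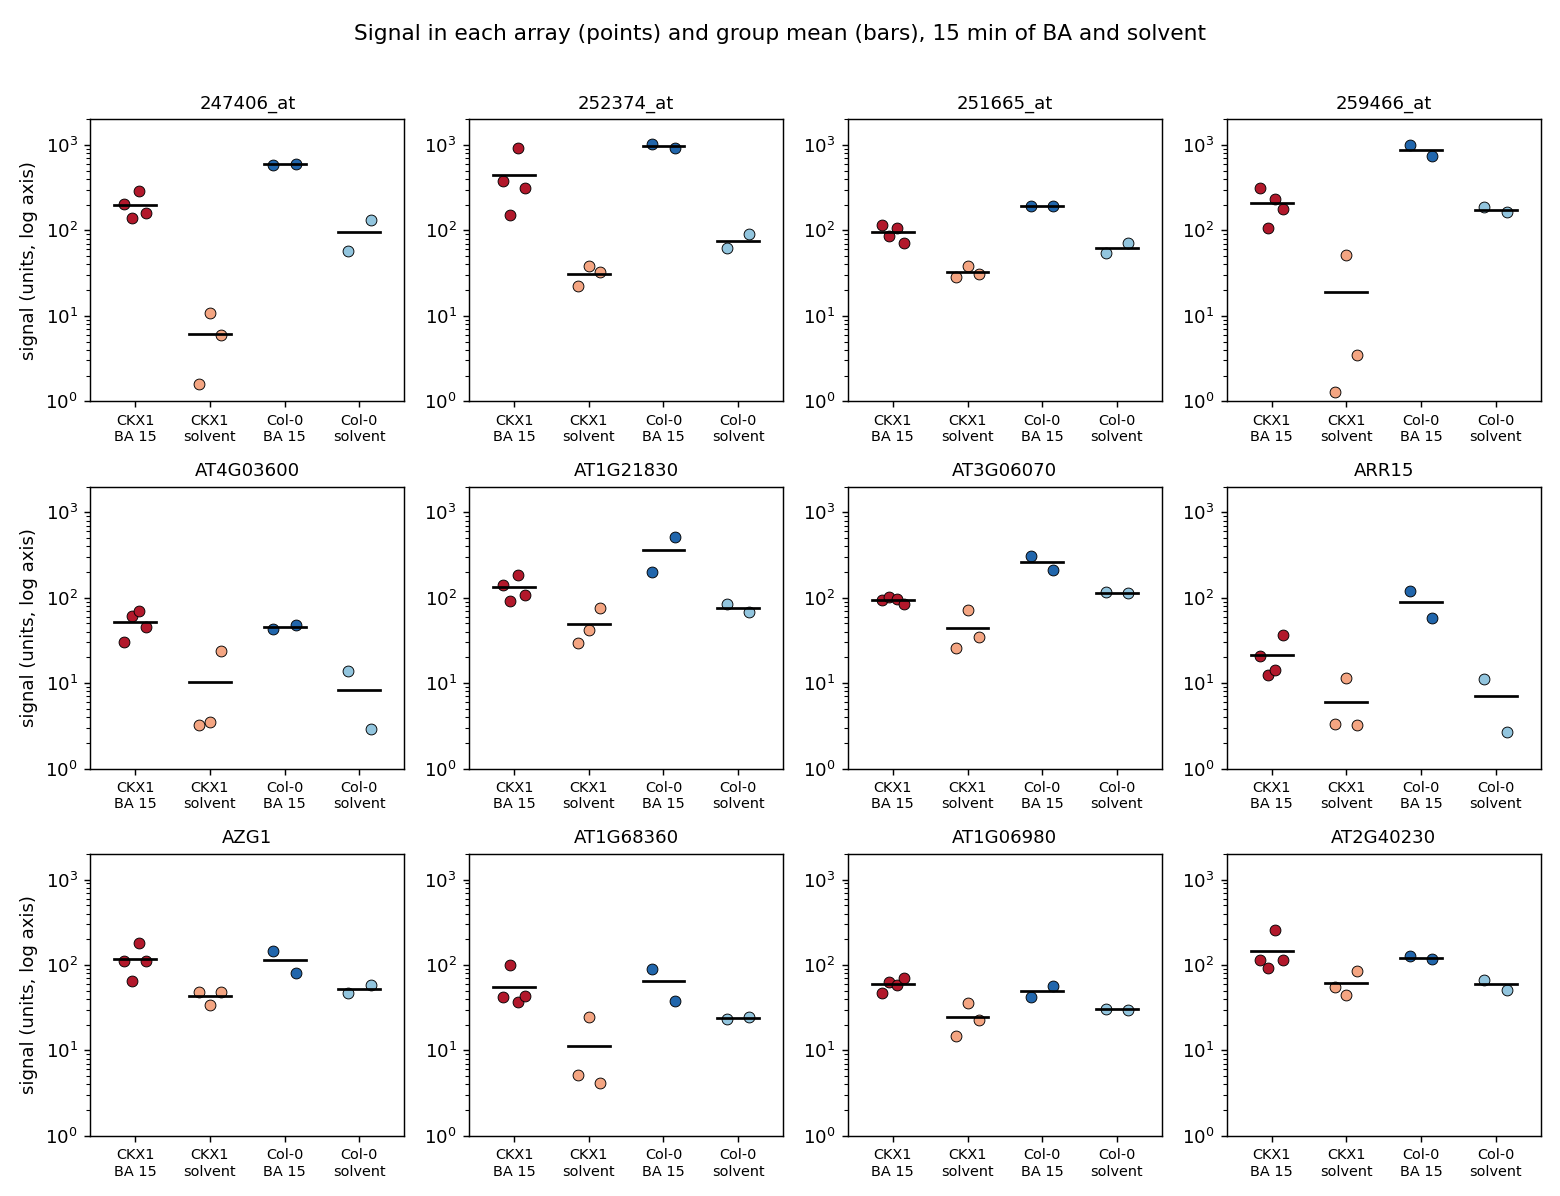
Deposited signal on each array (log axis) for probe sets described in the text, with points for single arrays of each genotype and treatment and bars for group means. The BA arrays of 252374_at lie above all of its solvent arrays in both genotypes.

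The 3 calls did not rest equally firmly on the arrays. With 1 array left out in turn, 252374_at and 247406_at stayed past the threshold each time, whereas the call of 251665_at ended in 8 of 11 cases (limma adjusted p from 0.0186 to 0.120), while its log2 difference stayed between 1.43 and 1.57. It was kept without CKX1 solvent array 2, CKX1 BA array 2 or CKX1 BA array 4, and ended without any other array. Without the 3 arrays of high 25S signal, 252374_at alone was called (limma adjusted p = 0.0418), while 247406_at had a log2 difference of 3.74 (adjusted p = 0.101) and 251665_at of 1.44 (adjusted p = 0.151), with 5 residual degrees of freedom in place of 8. In the fit with an interaction term and equal weight of the genotypes, 251665_at was not called (limma adjusted p = 0.0610). With the replicate number as a block, 5 probe sets were called when it was a fixed term and 8 when it was a random term, and all of them rose. The fixed block left 4 residual degrees of freedom. CKX1 BA array 4 has no same-numbered solvent array and added nothing to the effects in that fit. The random block added AT4G03600 (limma adjusted p = 0.0302) and AT1G21830 (limma adjusted p = 0.0495). With estimated array weights, 23 probe sets were called, 21 higher and 2 lower.

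Genes of cytokinin signalling and handling were represented by few named probe sets. Of 83 loci in the 5 cytokinin lists, 9 had a named probe set and 6 were measured, and 0 of these 6 passed the adjusted threshold in limma. The response regulators ARR18, ARR19 and ARR22 were the only named members of the signalling list, and their signals did not pass the filter. With estimated array weights 3 of the 6 were called, AZG1 (limma adjusted p = 0.00454), ARR15 (limma adjusted p = 0.00902) and GIS3 (limma adjusted p = 0.00902). In that fit 21 of all 15922 tested probe sets were called as higher. In the unweighted fit all 6 were higher in both genotypes. Of them, 4 had an unadjusted p under 0.05, beside 0.697% of all tested probe sets that were higher at that p. Their median log2 difference was 1.04, beside a median of −0.016 over all tested probe sets, of which 18.3% were higher in both genotypes. The lists were drawn up with earlier results of these arrays known, so these counts are a description.

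ARR15, a type-A response regulator, had signals of 20.9, 12.6, 14.3 and 36.6 on the CKX1 BA arrays, against 3.3, 11.4 and 3.2 with solvent. In Col-0 its signals were 119.8 and 57.8 with BA, against 11.3 and 2.7 with solvent. The groups were apart within each genotype, and both Col-0 BA arrays were above every CKX1 BA array. The log2 difference was 2.06 ± 0.45 (SE, unadjusted p = 0.00067, limma adjusted p = 0.787). It was 1.40 in CKX1 and 3.2 in Col-0, and the effect in CKX1 minus that in Col-0 was −1.80 ± 0.81 (SE, unadjusted p = 0.0489, adjusted p = 1.00 in limma).

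ARR16 (listed as RR16), another type-A response regulator, had signals of 15, 37.2, 4.8 and 18.4 on the CKX1 BA arrays, against 4.4, 11.4 and 11.2 with solvent. With BA in Col-0 it had 68.3 and 31.1, against 19.6 and 16.2 with solvent. The groups overlapped in CKX1, through BA array 3, and were apart in Col-0. The log2 difference was 0.88 ± 0.40 (SE, unadjusted p = 0.0479, limma adjusted p = 1.00).

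AZG1 encodes a purine transporter. Its signals were 112.4, 64.3, 180.7 and 111.3 on the CKX1 BA arrays, against 47.7, 34 and 48.7 with solvent. In Col-0 they were 144.5 and 81.6 with BA, against 46.5 and 58.2 with solvent. The arrays were apart in both genotypes, with a log2 difference of 1.19 ± 0.26 (SE, unadjusted p = 0.000739, limma adjusted p = 0.787) that was 1.29 in CKX1 and 1.02 in Col-0. The cytokinin N-glucosyltransferases UGT76C1 and UGT76C2 had log2 differences of 0.46 (unadjusted p = 0.0731) and 0.34 (unadjusted p = 0.363).

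GIS3 (AT1G68360), a C2H2 zinc finger transcription factor of trichome initiation, had signals of 41.8, 99.8, 37.2 and 43 on the CKX1 BA arrays, against 5.2, 24.7 and 4.2 with solvent. Its Col-0 signals were 90.2 and 38.1 with BA, against 23.1 and 24.6 with solvent. The groups were apart in both genotypes, and array 2 was the highest of its CKX1 group with and without BA. The log2 difference was 1.80 ± 0.41 (SE, unadjusted p = 0.000951, limma adjusted p = 0.885), 2.15 in CKX1 and 1.19 in Col-0.

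Counting by the arrays alone, 44 probe sets (0.276%) had every BA array above every solvent array within CKX1 and within Col-0, and 16 (0.10%) had every BA array below. With 4 against 3 arrays in CKX1 and 2 against 2 in Col-0, such separation also arises where nothing changed. The counts to be had in that case were not computed, so 44 and 16 are a description and do not show a response. Of the 44 that were higher, 22 matched 1 gene. The next genes are those of the 22 with the lowest p, so their separation is the ground of choice and not a further finding.

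AT4G03600, for which no role is given here, had signals of 29.9, 61.5, 70.7 and 45.4 on the CKX1 BA arrays, against 3.2, 3.5 and 23.8 with solvent. The Col-0 arrays gave 43.1 and 48 with BA, against 13.8 and 2.9 with solvent. All BA arrays of both genotypes lay above all solvent arrays, and the log2 differences were 2.30 in CKX1 and 2.23 in Col-0. Together they gave 2.28 ± 0.41 (SE, limma adjusted p = 0.403).

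AT1G21830 was measured by a pair of probe sets. On 262488_at its signals were 142.7, 91.5, 185.6 and 107 with BA in CKX1, against 29.5, 41.6 and 75.5 with solvent. In Col-0 they were 200.7 and 520 with BA, against 83.5 and 68.2 with solvent. The log2 difference was 1.65 ± 0.32 (SE, limma adjusted p = 0.565). The brighter 262489_at gave the same direction with a smaller log2 difference of 0.87 ± 0.28 (SE, limma adjusted p = 1.00), and on it the CKX1 groups overlapped, at 183.4 on BA array 4 and 256.1 on solvent array 3.

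AT3G06070 had nearly equal log2 differences in CKX1 and in Col-0, 1.16 and 1.15, and 1.15 ± 0.24 over both (SE, limma adjusted p = 0.762). Its signals were 94.7, 102, 96.6 and 83.4 on the CKX1 BA arrays, against 25.7, 72.3 and 34.5 with solvent. In Col-0 they were 311.7 and 212.7 with BA, against 115.4 and 113.2 with solvent, so the Col-0 solvent arrays were brighter than the CKX1 BA arrays. AT2G40230, of the HXXXD-type acyltransferase family, had a log2 difference of 1.08 ± 0.27 (SE, limma adjusted p = 1.00), with 1.12 in CKX1 and 1.01 in Col-0. AT1G06980 had 1.02 ± 0.23 (SE, limma adjusted p = 0.885), with 1.24 in CKX1 and 0.64 in Col-0.

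Among probe sets with no single gene match, 259466_at came next after the 3 called ones. Its signals were 310.6, 105.7, 235 and 179.3 on the CKX1 BA arrays, against 1.3, 52 and 3.5 with solvent, and in Col-0 1007.4 and 749.1 with BA, against 186.7 and 164.8 with solvent. The groups were apart in both genotypes, and solvent array 2 of CKX1 stood well above the other two. The log2 difference was 3.38 ± 0.59 (SE, limma adjusted p = 0.403). It was called with a pseudocount of 0.5 of the median (limma adjusted p = 0.0472) and with array weights (limma adjusted p = 0.0127). The other named genes whose BA arrays lay above the solvent arrays in both genotypes were AT3G05270 at 0.87, AT3G15470 at 0.84, the pentatricopeptide repeat gene AT3G62890 at 0.74, AT3G48490 at 0.62, AT4G27980 at 0.57, AT1G54120 at 0.55 and AT2G39170 at 0.44 on the log2 scale.

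**Figure D2:**
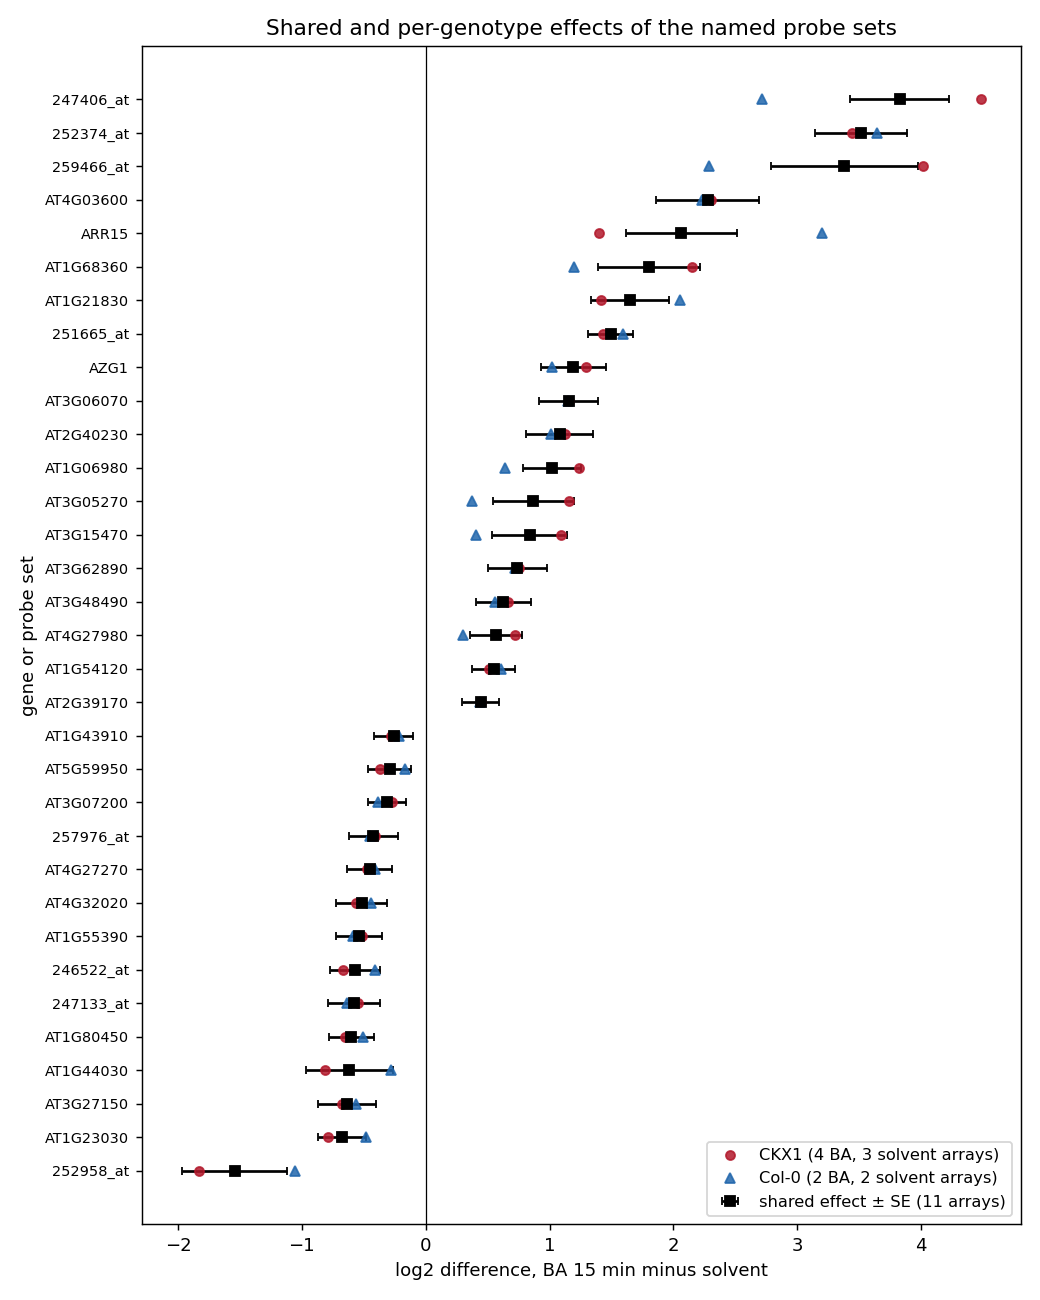
Log2 difference between BA at 15 min and solvent for named probe sets in CKX1 and in Col-0, with the value over both genotypes and its standard error. The 3 called probe sets have values of 3.83, 3.51 and 1.49.

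No probe set with a lower signal after 15 min was called. Of the 16 probe sets whose BA arrays lay below the solvent arrays in both genotypes, 10 matched 1 gene. Of these 10, 6 had an unadjusted p under 0.05 in limma, beside 0.383% of all tested probe sets that were lower at that p. Their separation was the ground of choice and favours a low p, so that count is not a further finding. AT1G23030, which encodes the U-box ubiquitin ligase PUB11, had signals of 135.9, 93.7, 113 and 114.8 on the CKX1 BA arrays, against 209.6, 158.3 and 236.2 with solvent. Col-0 arrays had 165.5 and 259.8 with BA, against 319.8 and 263.4 with solvent. The gap between the groups ran from 135.9 to 158.3 in CKX1 and from 259.8 to 263.4 in Col-0. The log2 difference was −0.68 ± 0.19 (SE, unadjusted p = 0.00472, limma adjusted p = 1.00). AT3G27150, an F-box gene with Kelch repeats, had a log2 difference of −0.63, and AT1G80450, a VQ motif gene, of −0.60. AT1G55390 had −0.54, AT4G32020 −0.52 and AT4G27270, of the quinone reductase family, −0.45.

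The remaining 4 of the 10 were AT1G44030 at −0.62, AT3G07200 at −0.31, AT5G59950, of the ALY family of RNA export factors, at −0.29 and AT1G43910 at −0.26. The unlisted probe set 252958_at had the lowest value among the named ones that were apart downward. Its signals were 17.7, 20.6, 2.3 and 19.8 on the CKX1 BA arrays, against 50.9, 88.5 and 33.9 with solvent, and in Col-0 35.2 and 17.7 with BA, against 40.8 and 76 with solvent. BA array 3 of CKX1 was far below the others of its group, and the log2 difference was −1.54 ± 0.43 (SE, limma adjusted p = 1.00).

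The arrays of CKX1 and of Col-0 are separate, so each genotype's effect can be set beside the other's. Across the 15922 tested probe sets the effects in CKX1 and in Col-0 correlated at r = −0.125 and rho = −0.189. This is a description across probe sets, which are not independent and share their arrays. The effects had the same sign for 6699 probe sets (42.1%), of which 2916 (18.3%) were higher and 3783 (23.8%) were lower in both. The SD of the effects was 0.321 in CKX1 and 0.459 in Col-0. Without the 3 arrays of high 25S signal r was 0.079, and over all settings it ran from −0.32 to 0.25, so the sign of this correlation depended on the arrays used.

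Probe sets chosen by a low unadjusted p in one genotype were then read in the other. That p came from the fit with the interaction, whose error variance pools the arrays of both genotypes. Of 26 probe sets that were higher in CKX1 at an unadjusted p under 0.01 in limma, 24 were also higher in Col-0 (92.3%), where 44.9% of all tested probe sets were higher. Their median log2 difference in Col-0 was 0.97, beside −0.044 for all tested probe sets. In the other direction, 10 of 11 probe sets chosen as higher in Col-0 were also higher in CKX1 (90.9%), where 49.7% of all were higher, and their median log2 difference in CKX1 was 1.13. Of 11 chosen as lower in CKX1, 5 were lower in Col-0 (45.5%, beside 55.1% of all), and 0 were chosen as lower in Col-0. These shares depended on the cut and the model. At an unadjusted p under 0.05, 74 of 118 probe sets higher in CKX1 were also higher in Col-0 (62.7%), and 43 of 62 higher in Col-0 were also higher in CKX1 (69.4%). At that cut, 29 of 55 lower in CKX1 were also lower in Col-0 (52.7%, beside 55.1% of all). Of 60 lower in Col-0, 24 were also lower in CKX1 (40%, beside 50.3% of all). With the fixed replicate block and a p under 0.01, 40 of 49 chosen as higher in CKX1 were higher in Col-0 (beside 44.9% of all). Of 84 chosen as higher in Col-0, 54 were higher in CKX1 (beside 47.1% of all). Of 33 chosen as lower in CKX1, 21 were lower in Col-0 (beside 55.1% of all). Of 58 chosen as lower in Col-0, 34 were lower in CKX1 (beside 52.9% of all). Shares of all probe sets that were lower without the 3 arrays of high 25S signal were 49.8% in Col-0 and 51.1% in CKX1. In that setting every Col-0 effect rested on a single BA array, so agreement between the genotypes there is not replicated. Without the 3 arrays of high 25S signal, 14 of 17 chosen as lower in CKX1 (82.35%) and 5 of 5 chosen as lower in Col-0 were lower in the other.

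**Figure D3:**
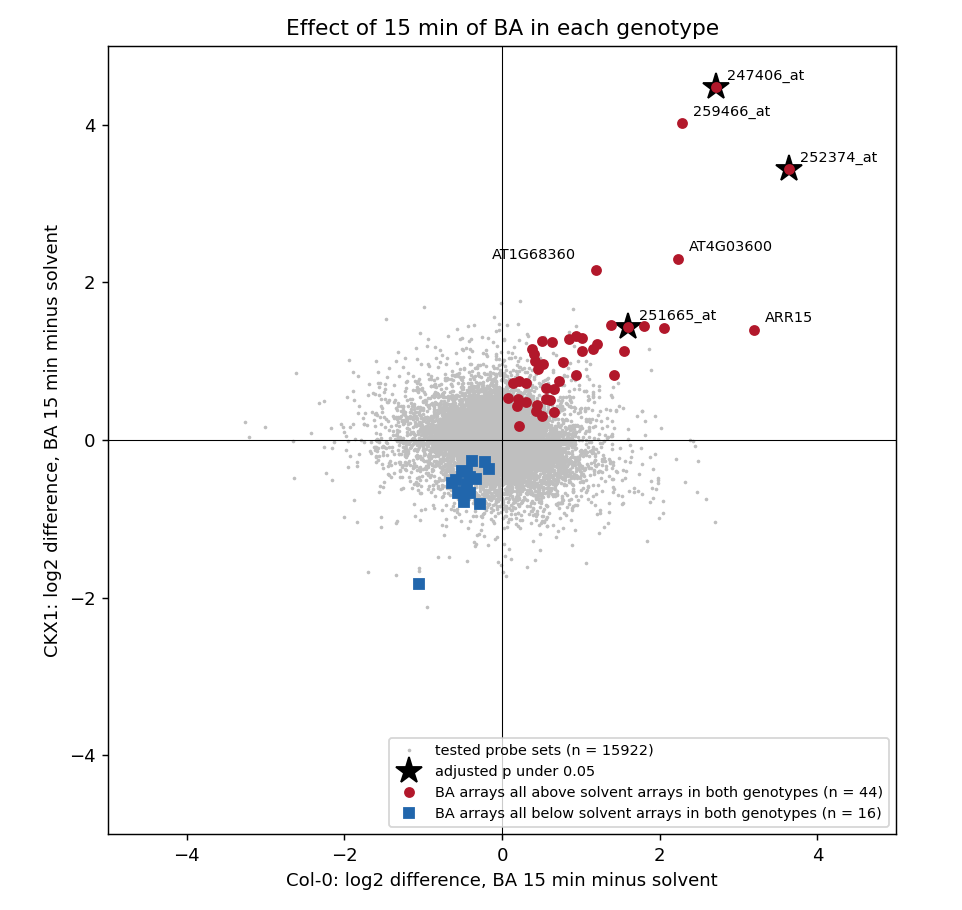
Log2 difference between BA at 15 min and solvent in CKX1 (vertical axis) and in Col-0 (horizontal axis) for every tested probe set, with stars for called probe sets, and circles and squares for those whose BA arrays lay all above (44) or all below (16) the solvent arrays in both genotypes. The bulk is spread around 0 with r = −0.125, and the called probe sets stand where both values are above 0.

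The difference of the BA effect between CKX1 and Col-0 was called for 0 probe sets at an adjusted p under 0.05 in limma, and for 117 (0.735%) at an unadjusted p under 0.05. That count of 117 became 663 with the fixed and 736 with the random replicate block, 477 with array weights, 749 with the 25S signal as a covariate, and 47 (without Col-0 BA array 2) to 1019 (without Col-0 BA array 1) with 1 array left out. Of the 15 named rises that match 1 gene and the 4 that do not, 2 were among those 117, 247406_at and ARR15, and their differences had opposite signs. Each genotype's own effect came from the fit with the interaction, whose error variance pools the arrays of both genotypes. For CKX1, limma called 1 probe set (0.00628%), 247406_at, at an adjusted p under 0.05 (adjusted p = 0.00690), with 173 (1.09%) at an unadjusted p under 0.05. For Col-0 it called 0, with 122 (0.766%) at that unadjusted p.

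The same model gave the difference in level between the genotypes, at equal BA treatment. For 36 probe sets (0.226%) CKX1 and Col-0 differed at an adjusted p under 0.05 in limma, and one of them was 247406_at, at −2.45 ± 0.41 (SE, limma adjusted p = 0.0453) for CKX1 minus Col-0. AT3G06070 was another, at −1.43 ± 0.25 (SE, limma adjusted p = 0.0460). For 259466_at the level difference was −2.97 ± 0.62 (SE, limma adjusted p = 0.0936), for 251665_at −0.96 ± 0.19 (SE, limma adjusted p = 0.0700) and for UGT76C2 −2.04 (limma adjusted p = 0.0561). Levels in CKX1 were thus lower for a pair of named probe sets past the threshold, and AT4G03600 had a level difference of 0.08.

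After 120 min of BA, Col-0 signals were available on 2 arrays, which share their solvent controls with the 15 min comparison and are given as signals only. By the labels these 2 arrays and the 2 h solvent controls of Col-0 had treatments of equal length. CKX1 had no such arrays. Array 1 was placed by its title and description, while its source label names the control solution. For 252374_at the signals were 62.1 and 90.2 with solvent, 1032.4 and 919.8 at 15 min, and 435 and 393 at 120 min. For 247406_at they were 56.8 and 133.9 with solvent, 579.8 and 603.8 at 15 min, and 187.4 and 188.2 at 120 min. Both were thus between the solvent and the 15 min signals at the later time. For 251665_at the 120 min signals were 173.7 and 170.9, close to the 195.5 and 195 at 15 min.

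Other genes had a different course in Col-0. AT1G21830 had signals on 262488_at of 83.5 and 68.2 with solvent, 200.7 and 520 at 15 min, and 663.4 and 632.8 at 120 min. AZG1 had 46.5 and 58.2 with solvent, 144.5 and 81.6 at 15 min, and 44.1 and 47.1 at 120 min. AT3G06070 had 115.4 and 113.2 with solvent, 311.7 and 212.7 at 15 min, and 75.3 and 64 at 120 min. The first was brightest at 120 min, and the other two were by then near or below their solvent signals. ARR15 had 80.4 and 61.7 at 120 min, within the range of its 15 min arrays, and ARR16 had 67 and 84.1.

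**Figure D4:**
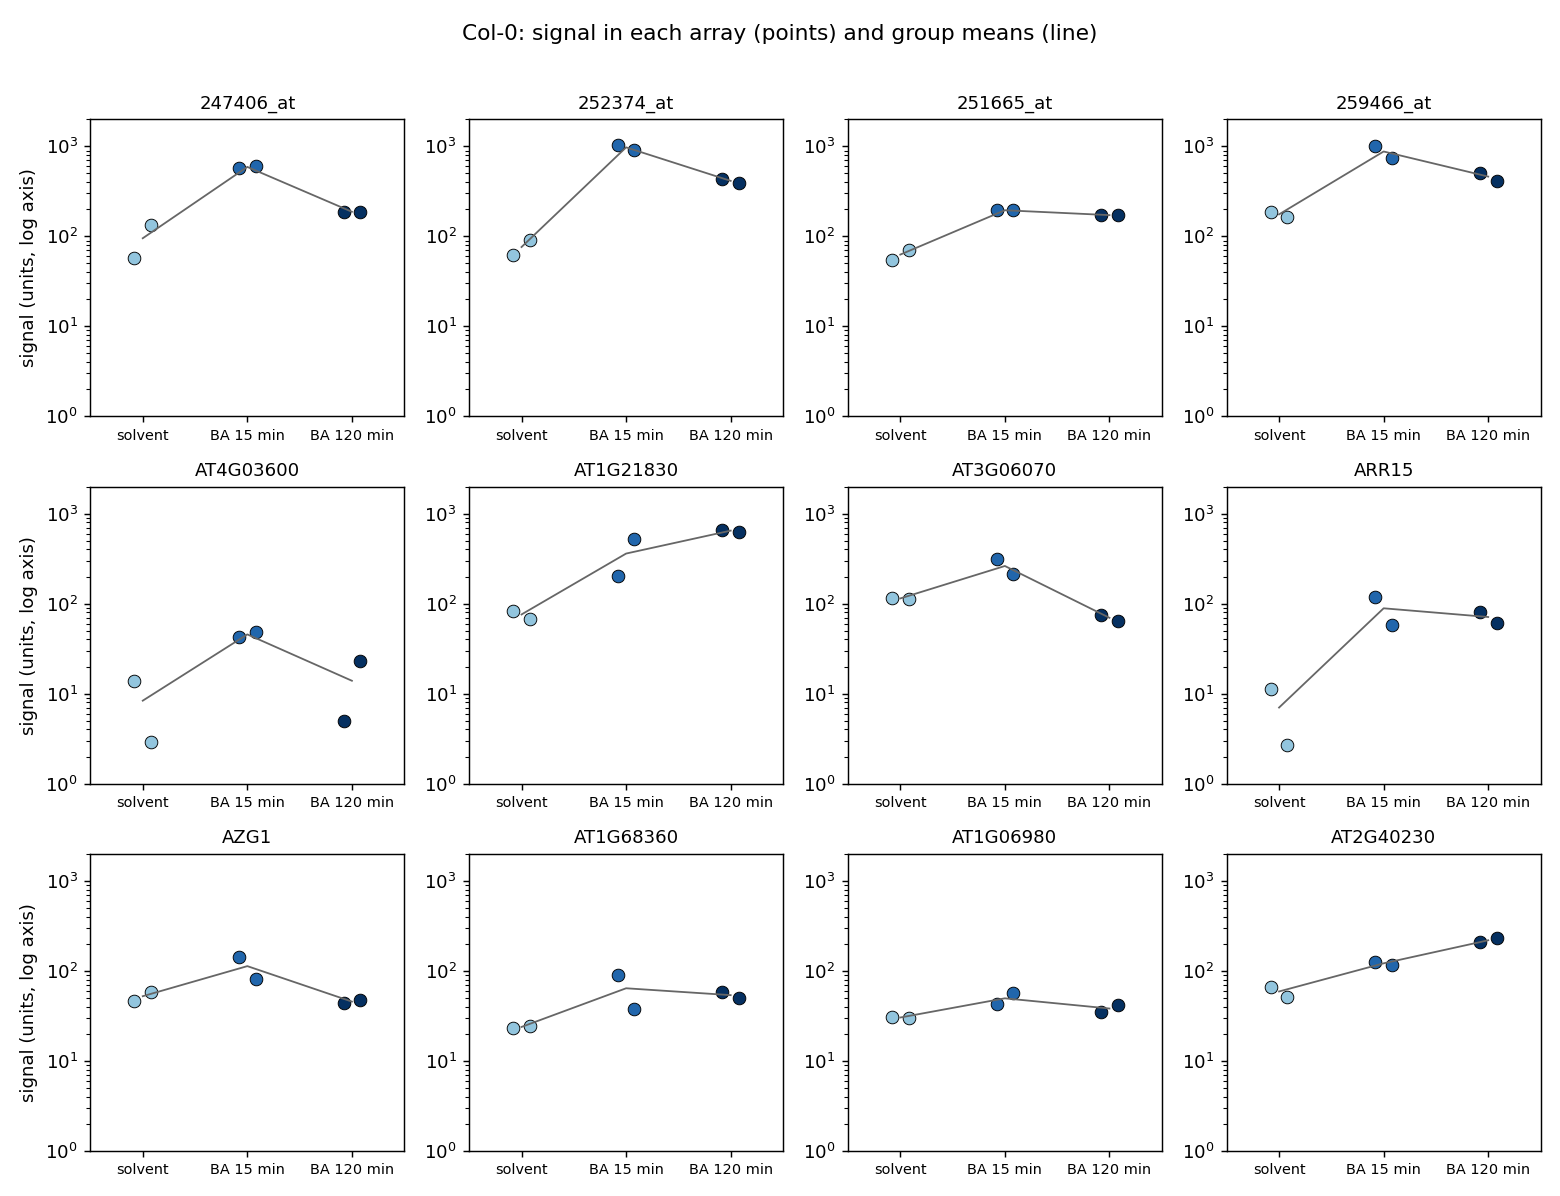
Deposited signal (log axis) in Col-0 with solvent and after 15 and 120 min of BA for probe sets described in the text, with 1 point per array and a line through the group means. Signals of 252374_at are highest at 15 min, and those of AT1G21830 on 262488_at are highest at 120 min.

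The other 13 lists held 128 loci, of which 35 had a named probe set and 30 were measured. None of the 30 passed the adjusted threshold in limma, and their median log2 difference was −0.16, beside −0.016 over all tested probe sets. Of the 30, 1 had an unadjusted p under 0.05, beside 1.08% of all tested probe sets. A count of 1 is not a result about these lists. The 1 gene was HHO2 (AT1G68670), a GARP-type transcriptional repressor of nitrate and phosphate responses. Its signals were 217.7, 177.8, 216.5 and 182.2 on the CKX1 BA arrays, against 118.4, 113.4 and 182.3 with solvent, and in Col-0 173.5 and 367.4 with BA, against 107.9 and 104.6 with solvent. BA arrays 2 and 4 of CKX1 were below its solvent array 3, so the groups overlapped there, and the log2 difference was 0.79 (unadjusted p = 0.00623, limma adjusted p = 1.00). At 120 min its Col-0 signals were 399.8 and 413.3. The related genes AT1G25550 and AT3G25790 had log2 differences of 0.58 and 0.12.

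Genes of rapid stress and touch responses varied between arrays of a group. STZ, a zinc finger repressor induced by many stresses, had signals of 23.5, 52.5, 518.4 and 38.9 on the CKX1 BA arrays, against 45.1, 452.4 and 699.3 with solvent. In Col-0 it had 185.1 and 53.4 with BA, against 213.7 and 314.2 with solvent. Its log2 difference of −1.58 ± 0.83 (SE, unadjusted p = 0.0820, limma adjusted p = 1.00) was therefore small against the spread in CKX1. The stress-linked transcription factor WRKY53 had a log2 difference of −0.47.

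Of the 5 measured expansins of the cell wall loosening list, 2 were lower in both genotypes, where 23.8% of all tested probe sets were. The log2 differences were −0.32 in CKX1 and −0.69 in Col-0 for EXPA4, 0.34 and −1.60 for EXPB1, 0.015 and −1.36 for EXPB3, and −0.48 and 0.0030 for EXPA8. The gibberellin receptor GID1B had −0.26 in CKX1 and −0.46 in Col-0, whereas GID1A had −0.57 and 0.45 and GID1C had −0.88 and 0.54. The auxin response genes GH3.3, LBD16 and WES1 had 0.06, 0.02 and −0.03, the ethylene transcription factor EIN3 had 0.01, and the clock gene GI had −0.18. The cold and drought genes LTI30 and COR47 had 0.31 and 0.22, and AT3G10040 of the low-oxygen list had −0.37.

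Markers of tissues were present on every array. The light-harvesting gene LHCB4.1 lay between 3940.7 and 6381.2 and the root-rich beta-glucosidase PYK10 between 2228.6 and 3552.6 over the 11 arrays. The summed signal of the 4 measured root markers was 2768.1 to 3793.6 on the CKX1 BA arrays, against 3507.9 to 3956.2 with solvent. In Col-0 it was 2530.4 and 2747.5 with BA, against 3521 and 3690.5 with solvent. The root sum was thus lower with BA in Col-0 and overlapped in CKX1, and its part in the lower signals was not tested. PYK10 made up most of this sum on every array. In Col-0 the log2 differences were −0.49 for PYK10, −0.76 for EXPA18, −0.90 for EXPA7 and 1.26 for AT1G62500. The Col-0 groups overlapped for EXPA18 and EXPA7, and were apart downward for PYK10 and upward for AT1G62500. The 2 measured markers of green tissue summed to 5970.3 to 6842.2 on the CKX1 BA arrays, against 4555.5 to 7189.5 with solvent, and to 5195.6 and 6858 in Col-0 with BA, against 5880.8 and 6641.5 with solvent. Over both genotypes, the root markers taken singly had log2 differences of −0.27 for PYK10, 0.21 for AT1G62500, −0.17 for EXPA18 and −0.15 for EXPA7. PORB of chlorophyll synthesis had −0.42. Of the 4 pollen and seed markers, AT1G29140 alone had a listed probe set, whose signal lay between 0.6 and 21.3 and did not pass the filter. The reference genes AT4G34270, PEX4 and AT2G28390 had log2 differences of −0.15, 0.16 and 0.03.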

How the data were processed

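The deposited table holds linear signal intensities, already normalized when a service centre returned them, per the labels' protocols. For software, summary method and scaling, the step is not given in the sources used here. Groups came from sample titles. Values under 1 were set to 1, 3.39 (0.1 times the median of all values, 33.9) was added as pseudocount, and log2 was taken. Probe sets under the 30th percentile of mean log2 signal were left out.

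An additive model of BA and genotype, without interaction, was fitted to 11 arrays in limma 3.58.1 (R 4.3.3) with an intensity trend and 8 residual degrees of freedom, and p-values were Benjamini-Hochberg adjusted over 15922 probe sets. Effects within a genotype and their difference came from a fit with the interaction. The additive fit was tested on simulated arrays with independent noise, without the link between same-numbered arrays described below, which that test does not cover. In it, 35.8% of simulated log2 changes of 1, 86.6% of 2 and 97% of 4 were called, with 3 false calls. Standard errors are from the fit, and signals are as deposited.

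Deviations from group means correlated at 0.63, 0.59 and 0.73 for same-numbered CKX1 arrays and 0.11 for those of Col-0. Other pairs had a median of −0.15 and ran from −0.51 to 0.47, a range that holds the Col-0 value. Deviations within a small group are tied to each other, which lowers the value of other pairs. The title numbers were taken to pair arrays in both genotypes, on the ground of the CKX1 values. The model has no block, so its standard errors and p-values leave this pairing out. The blocked fits are alternatives, beside other scalings, pseudocounts, filters, variance models, weights, covariates and left-out arrays.

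Named were the called probe sets, the 15 rises and 15 falls with the lowest p among those with 1 gene and non-overlapping groups in both genotypes (10 falls qualified), 4 of each without 1 gene, the measured cytokinin list members and up to 4 of every other list. Members and lists were chosen with earlier results of these data known. Gene names come from the platform annotation and a RefSeq gene table, which matched 13436 of 13513 probe sets with 1 gene. No promoter or protein sequence was used here.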

Additional observations from a re-analysis of the deposited data

Results flagged for a closer look

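Within the 4 CKX1 BA arrays, 9 of the 65 named probe sets had 1 array far from the other 3 by Dixon's criterion. It was taken on the deposited linear signals. About 1 in 20 groups meet it by chance where values are independent and normally distributed. Linear signals need not be so distributed, and the probe sets share the same 4 arrays. The 9 of 65 therefore cannot be read against that rate. No other group had 4 arrays to test. On array 3, STZ was at 518.4 (nearest 52.5), WRKY53 at 94.7 (nearest 21.4), LHCB4.1 at 6381.2 (nearest 5025.2), AT2G40230 at 258.9 (nearest 115.8) and 252958_at at 2.3 (nearest 17.7). Array 3 also had the highest 25S control signal of the model, at 803.7, and its part in these values was not tested. On array 2, AT1G68360 was at 99.8 (nearest 43), AT4G32020 at 314.6 (nearest 566.7), AT1G44030 at 2.7 (nearest 18.5) and GID1A at 56.1 (nearest 126.5).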

How the results depend on the processing

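Of the 26 alternatives, 252374_at was called in 26, 247406_at in 25 and 251665_at in 16. The count of called probe sets was 3, against 23 with array weights, 5 with a fixed and 8 with a random replicate block, 1 without the 3 arrays of high 25S signal, 2 with the interaction term (251665_at lost), 4 with a pseudocount of 0.5 of the median (259466_at added), and 2 to 3 with 1 array left out. No alternative called a difference of the effect between genotypes. Without those 3 arrays, chosen after seeing the data, 316 probe sets were apart upward and 329 downward in both genotypes, with fewer arrays to separate in CKX1 and in Col-0, and the share of probe sets lower in CKX1 that were also lower in Col-0 was 82.35%. For Col-0, those counts and that share rested on a single BA array. Of 65 named probe sets, 48 kept their sign throughout. The cause of the turned signs was not tested.

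With array weights the log2 difference was −0.21 for AT3G25790, 0.0098 for AT4G34270, 0.0045 for EXPA18, 0.044 for EXPA7, −0.078 for GH3.3, 0.0040 for GI and −0.099 for LHCB4.1. Without the 3 arrays it was −0.018 for AT1G62500, −0.014 for EIN3, 0.11 for EXPA18, 0.092 for EXPA7, −0.11 for GH3.3, −0.097 for LHCB4.1 and 0.041 for WES1. The fixed block gave −0.0080 for GH3.3, −0.031 for LBD16 and 0.0026 for WES1, and the random block −0.0037 for LBD16. Equal weight for the genotypes gave −0.028 for GH3.3, −0.027 for LBD16 and 0.069 for WES1. Quantile normalization gave −0.022 for LHCB4.1, and the 25S covariate −0.10 for EIN3. With 1 array left out, values ran from −0.18 to 0.50 for AT1G62500, −0.045 to 0.17 for AT2G28390, −0.074 to 0.30 for AT3G25790, −0.19 to 0.25 for EIN3, −0.45 to 0.13 for EXPA18, −0.34 to 0.20 for EXPA7, −0.52 to 0.054 for EXPA8, −0.93 to 0.14 for EXPB1, −0.23 to 0.23 for GH3.3, −0.34 to 0.035 for GI, −0.39 to 0.027 for GID1A, −0.12 to 0.17 for LBD16, −0.79 to 0.050 for PORB, −0.26 to 0.43 for WES1 and −0.89 to 0.021 for WRKY53. Dim probe sets near the floor are measured least well.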
